A study of Mus musculus with 12 samples.

Results

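Ion and metal solute carriers are the membrane proteins that move sodium, protons, chloride, bicarbonate, phosphate, sulfate, calcium, magnesium, iron, zinc, manganese and copper across the membranes of a cell. They were taken by name as the rows of the deposited count table for the families Slc4, Slc8, Slc9, Slc11, Slc12, Slc20, Slc24, Slc26, Slc30, Slc31, Slc34, Slc39, Slc40 and Slc41, without pseudogenes. This gave 87 genes of 34245 rows. Of these, 3 share the name only: Slc9a3r1 and Slc9a3r2 encode scaffold proteins that bind the sodium-proton exchanger Slc9a3, and Slc4a1ap encodes an adaptor protein. The table held 0 counts for 8 genes in all 12 libraries, 75 genes had over 3 counts in at least 1 library, and 73 had the total of 10 counts that a test required in at least 1 comparison.

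The study compared sorted cells of the small intestine of male C57BL/6 mice that all carry the Lgr5-EGFP-IRES-CreERT2 knock-in allele, by RNA sequencing of poly(A)+ RNA. Intestinal stem cells (ISC) were crypt cells sorted for high GFP driven by the Lgr5 locus, and adult enterocytes (AE) were villus cells sorted for high Epcam without CD31 and CD45. The young cohort had a mean age of 33 weeks and the aged cohort was on average 3.58 times as old, with 3 libraries for each cell type and age. No treatment is named for any group. The titles of 8 of the 12 samples carry a code at odds with the group they spell out, so each column of the table was placed by the cell type and age in its own name. Libraries held 11893817 to 110794420 counts, and the deepest was young AE replicate 3. The study's methods list 3 animals for each age, and which library came from which animal is not stated, so p-values measure the spread between libraries.

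Markers matched the labelled cell types. The 10 stem cell markers were lower in AE at both ages, 10 of 10, and their summed level was 4961 to 7022 CPM (counts per 1000000 counts of the library after scaling) in ISC against 82.2 to 534 CPM in AE, highest in young AE replicate 2. All 20 enterocyte markers were higher in AE, with sums of 86196 to 136120 CPM against 2605 to 12640.5 CPM in ISC. The AE gate also takes other epithelial cells of the villus: goblet markers summed to 30089 to 61942 CPM in AE against 1560 to 2427 CPM in ISC, and enteroendocrine markers to 3390 to 12325 CPM against 244 to 868 CPM. Lymphocyte markers summed to at most 33.1 CPM, macrophage markers to at most 37.8 CPM, erythroid markers to at most 21.3 CPM and stromal markers to at most 19.5 CPM in any library. The part of goblet and enteroendocrine cells in the differences between AE and ISC was not tested, and in sorted bulk RNA a change in the number of cells of a type and a change in RNA per cell cannot be told apart.

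Absorption by the small intestine rests on a division of labour along the crypt and villus. Mature enterocytes take up sodium, chloride, phosphate and trace metals through carriers of the brush border and release them through carriers and pumps of the basolateral side, while crypt cells load chloride from the blood side and secrete it into the lumen. Zinc, iron, copper and manganese are moved in and out of the cytosol by separate families: Slc39 carriers bring zinc and manganese in, Slc30 carriers move them out or into vesicles, Slc11a2 takes up iron and Slc40a1 releases it.

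Carriers were higher in AE more often than lower. In young mice 42 of 73 tested members were higher in AE and 13 were lower at an FDR under 0.05, against 29.0% and 26.7% of all rows tested. In aged mice 40 of 68 were higher and 13 lower, against 30.7% and 34.3% of all rows. Among the 68 members tested at both ages, 36 were higher at both, which is 52.9%, where 27.5% of all rows were. A further 12 were lower at both ages, which is 17.6%, where 27.3% of all rows were. Members called at both ages in opposite directions numbered 0, 11 were called at neither age and 9 at 1 age. Without young AE replicate 3, the deepest library, 8 members were lower in young AE in place of 13. The median log2 fold change of AE against ISC was 1.07 over the members in young mice, beside 0.15 over all rows, and 0.78 in aged mice, beside -0.13. With members at or under 3 counts in every library of a group set to their bound, and those at the limit in both groups left out, these medians were 0.94 and 1.03. Upper-quartile scaling moved the median of all rows to 0.03 in young and to -0.22 in aged mice, so small changes are read relative to that shift. The replicate block named below is a fit that pairs the ISC and AE libraries whose column names share a code. Here and throughout, levels are in CPM in the order of replicates 1, 2 and 3, a fold change is given as log2 ± its standard error with n = 3 a group, and FDR is that of edgeR's quasi-likelihood test over all rows. A group at or under 3 counts in every library gives a bound in place of a fold.

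**Figure D1:**
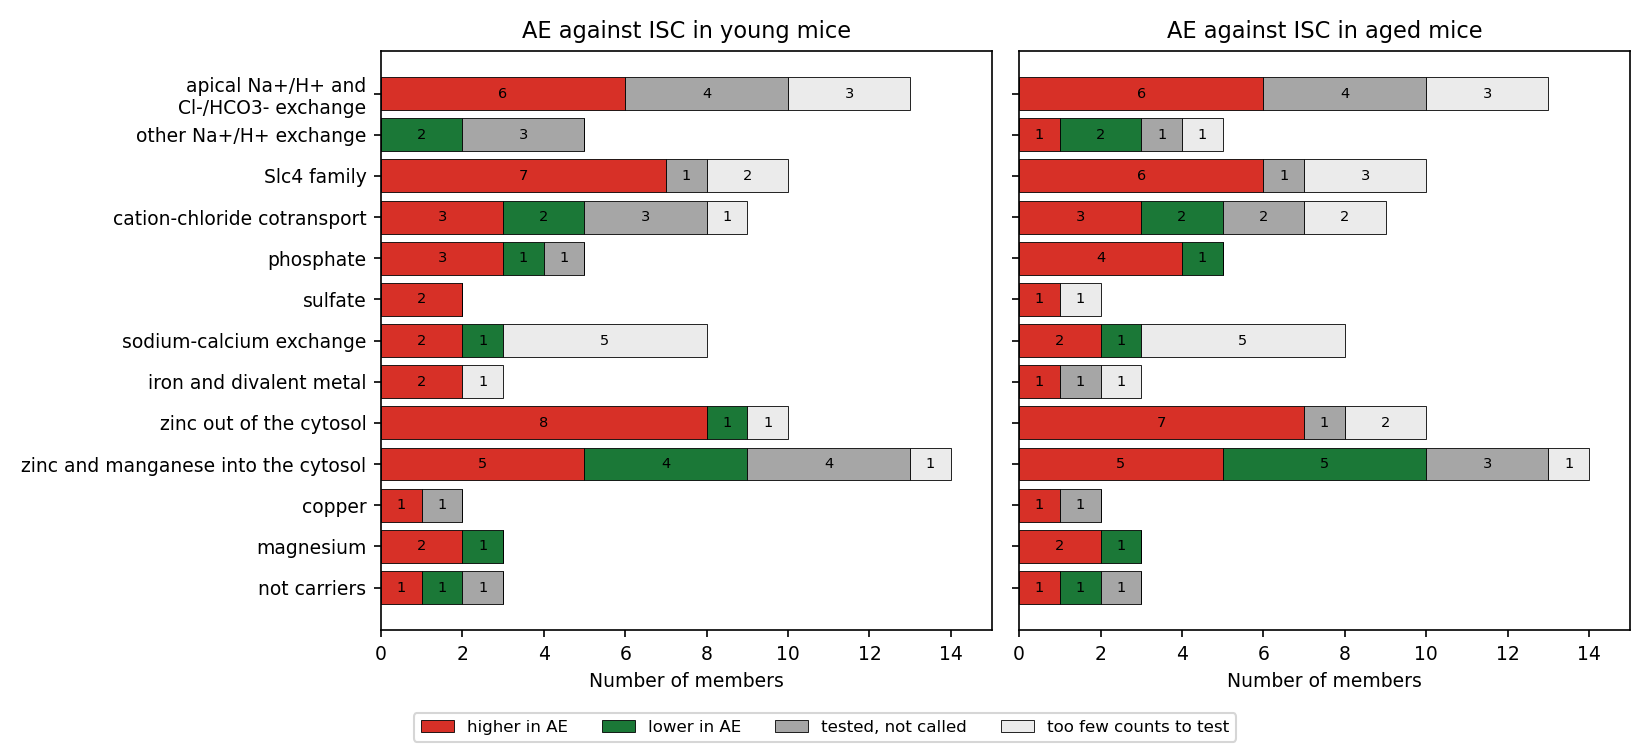
Number of members of each role (x axis) that were higher in AE (red), lower in AE (green), tested without a call (grey) or too low in counts to test (pale), in young mice (left) and aged mice (right). Zinc exporters and the Slc4 family are mostly red. The list for apical exchange holds 6 higher, 4 without a call and 3 too low to test at each age. Zinc importers are split between 5 higher and 4 or 5 lower.

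**Figure D2:**
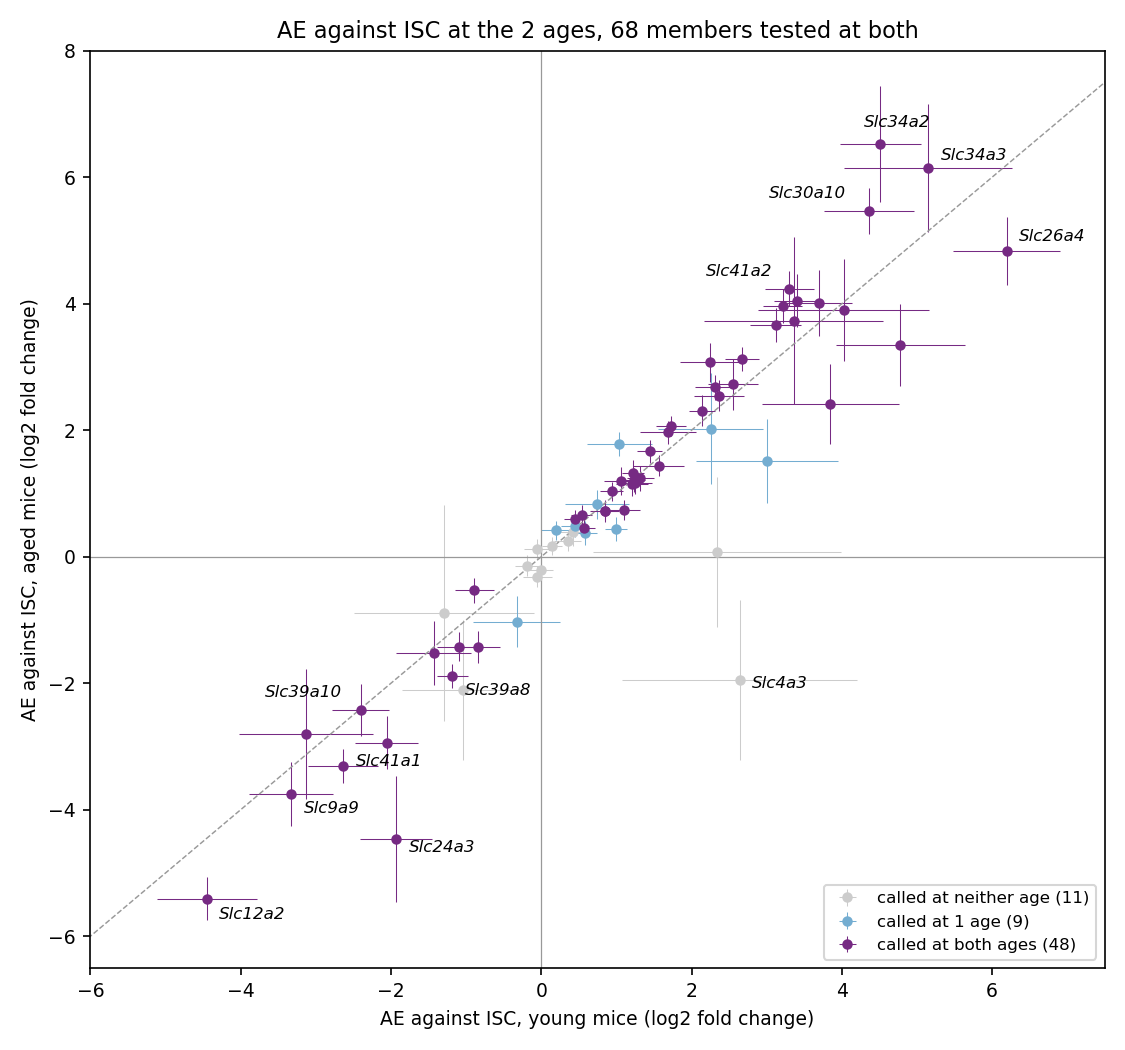
Log2 fold change of AE against ISC in young mice (x axis) and in aged mice (y axis) for the 68 members tested at both ages, with bars of 1 standard error and a dashed line of equal change. The 48 members called at both ages lie in the upper right, 36, and lower left, 12. Slc4a3, called at neither age, lies apart from the line but had at most 3 counts in every young ISC and every aged AE library. Points are fitted values, also for members that are given a bound in the text.

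Promoters are shown for 3 members with some of the largest rises, Slc30a10, Slc34a2 and Slc26a4, and for the falling Slc41a1, so that the letters searched can be seen. Each run holds the 250 bases before a RefSeq transcription start (GRCm38.p6), 5′ to 3′ on the strand of the gene, with the motif matches in capitals. Slc30a10 is a plasma membrane exporter of manganese, Slc34a2 the sodium-phosphate cotransporter of the brush border, Slc26a4 an anion exchanger known as pendrin and Slc41a1 a magnesium carrier. The starts used for Slc34a2 and Slc41a1 lie inside the spans of their rows. Bases chr1:185454598-185454847 on the plus strand, before Slc30a10, hold 3 matches of the metal response element, 2 of which overlap on opposite strands.
Slc30a10: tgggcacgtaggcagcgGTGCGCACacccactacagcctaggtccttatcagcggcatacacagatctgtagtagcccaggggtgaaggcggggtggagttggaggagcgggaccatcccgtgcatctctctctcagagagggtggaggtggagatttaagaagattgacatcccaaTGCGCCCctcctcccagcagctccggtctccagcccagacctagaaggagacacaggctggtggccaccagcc
Bases chr5:53049103-53049352 on the plus strand, before Slc34a2, hold 2 matches of the same element.
Slc34a2: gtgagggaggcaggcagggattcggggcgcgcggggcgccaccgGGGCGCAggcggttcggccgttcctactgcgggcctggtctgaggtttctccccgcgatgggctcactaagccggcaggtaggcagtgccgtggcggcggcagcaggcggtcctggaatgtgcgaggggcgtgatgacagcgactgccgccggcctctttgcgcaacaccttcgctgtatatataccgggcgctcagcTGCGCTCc
Bases chr12:31559985-31560234 on the minus strand, before Slc26a4, hold 2 matches of the CDX2 motif, and the nearer one, 26 to 32 bases before the start, contains the letters of a TATA box.
Slc26a4: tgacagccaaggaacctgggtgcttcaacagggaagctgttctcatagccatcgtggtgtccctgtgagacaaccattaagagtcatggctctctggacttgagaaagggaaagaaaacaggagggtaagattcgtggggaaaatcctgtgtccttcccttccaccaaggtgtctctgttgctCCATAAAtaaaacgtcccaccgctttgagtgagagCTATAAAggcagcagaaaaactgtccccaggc
Bases chr1:131827762-131828011 on the plus strand, before Slc41a1, hold 1 match of the metal response element.
Slc41a1: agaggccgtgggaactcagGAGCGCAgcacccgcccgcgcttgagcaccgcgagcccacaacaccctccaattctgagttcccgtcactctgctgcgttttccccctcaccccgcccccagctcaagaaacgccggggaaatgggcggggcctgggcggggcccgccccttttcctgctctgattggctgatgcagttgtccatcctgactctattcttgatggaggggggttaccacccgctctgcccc

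The motifs were searched on both strands in windows from 250 bases before to 50 bases after a start, which RefSeq gave for 68 of the 87 members in 85 windows. The metal response element, searched as TGCACNC or TGCGCNC, was found in 14 of 33 windows of members higher in AE at both ages, in 4 of 13 of members lower at both and in 16 of 39 of the other members, which is 42.4%, 30.8% and 41%, against 25.7% of all 32851 windows. The CDX2 motif TTTATNG, which on the other strand can overlap a TATA box, was in 1 of 33, 2 of 13 and 6 of 39 windows, against 10.9% of all. The HNF4 motifs CAAAGTCCA and CAAAGGTCA were in 1, 0 and 1 windows, against 0.95% of all. These are matches of letters, described without a test.

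In the list drawn up for apical exchange of sodium for protons or chloride for bicarbonate, 10 members were tested. The list takes every Slc26 member except Slc26a1 and Slc26a2, so not all are known from apical membranes. Of the 10 tested, 6 were higher in AE and 0 lower at each age, with a median log2 fold change of 2.52 in young and 2.03 in aged mice. With bounds in place of folds for members at the limit of detection, as above, these medians were 2.68 and 2.84. Among the 6, Slc26a10 was called in young mice only and Slc26a11 in aged mice only. The young call of Slc26a10 was lost without young ISC replicate 1 (FDR = 0.0877), without young ISC replicate 2 (FDR = 0.0758) and without young AE replicate 1 (FDR = 0.0621). With the filterByExpr filter its row had too few counts to be tested. Slc26a6, an apical exchanger of chloride with bicarbonate, oxalate and other anions, was at 53.4, 50.4 and 104 CPM in young and 22.8, 77 and 33.1 CPM in aged ISC. Slc26a6 reached 729, 713 and 766 CPM in young AE and 733, 791 and 787 CPM in the aged AE libraries. For Slc26a6 the lowest AE library was above the highest ISC library, 713 against 104 CPM. The AE libraries lay within a narrow band while the ISC libraries spread. It rose by 3.41 ± 0.31 log2 units in young mice (FDR = 0.000193) and by 4.05 ± 0.42 in aged mice (FDR = 2.11e-05), or 10.6-fold and 16.6-fold, and the aged value was 4.72 without aged ISC replicate 2. Slc26a3, the chloride-bicarbonate exchanger whose loss causes chloride diarrhoea, was at 50.2, 36.1 and 87.6 CPM in young and 40, 73 and 52.9 CPM in aged ISC. Slc26a3 reached 253, 278 and 369 CPM in young AE and 379, 364 and 276 CPM in the aged AE libraries. For Slc26a3 the lowest AE library was above the highest ISC library, 253 against 87.6 CPM. It rose by 2.37 ± 0.33 log2 units in young mice (FDR = 0.00078) and by 2.55 ± 0.25 in aged mice (FDR = 1.26e-05).

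Slc9a3 and Slc9a2, the sodium-proton exchangers of the enterocyte brush border, both rose. Slc9a3, the main absorptive exchanger, was at 22.8, 9.88 and 35.8 CPM in young and 4.35, 21.8 and 15.4 CPM in aged ISC. Slc9a3 reached 356, 274 and 259 CPM in young AE and 163, 222 and 314 CPM in the aged AE libraries. For Slc9a3 the lowest AE library was above the highest ISC library, 163 against 35.8 CPM. It rose by 3.70 ± 0.44 log2 units in young mice (FDR = 0.00041) and by 4.01 ± 0.52 in aged mice (FDR = 8.45e-05). Slc9a2 was at 38.6, 41.5 and 60.5 CPM in young and 34.8, 46.6 and 41 CPM in aged ISC. Slc9a2 reached 254, 341 and 304 CPM in young AE and 315, 404 and 402 CPM in the aged AE libraries. For Slc9a2 the lowest AE library was above the highest ISC library, 254 against 60.5 CPM. It rose by 2.68 ± 0.23 log2 units in young mice (FDR = 0.000159) and by 3.12 ± 0.19 in aged mice (FDR = 9.36e-07), and in the aged mice this was the lowest FDR of any member. Slc9a8, an exchanger of the Golgi and apical membrane, was tested and not called, with log2 fold changes of -0.002 ± 0.16 (FDR = 0.992) and -0.21 ± 0.16 (FDR = 0.287).

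Slc26a4 stood out by its near absence from ISC. It was at 0.0637, 0.0568 and 0.112 CPM in young and 0.365, 0.054 and 0.133 CPM in aged ISC. Slc26a4 reached 11.1, 4.8 and 2.93 CPM in young AE and 10.1, 4.66 and 5.24 CPM in the aged AE libraries. For Slc26a4 the lowest AE library was above the highest ISC library, 2.93 against 0.365 CPM. Every young ISC library held at most 3 counts, which puts young AE at least 35.6-fold higher (FDR = 0.000159), and the aged log2 fold change was 4.83 ± 0.53 (FDR = 2.57e-05), with 5.91 without aged ISC replicate 1. Its row, chr12:31519827-31559969 on the minus strand, lies on the same chromosome as that of Slc26a3, chr12:31390871-31473917 on the plus strand (GRCm38), and their levels differed. Per kb of exon, young AE held 47.1 ± 9.59 CPM of Slc26a3 and 2.02 ± 1.38 CPM of Slc26a4 (SD, n = 3). The stomach-type exchanger Slc9a4 held at most 0.449 CPM in any library and was not called.

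Of the sodium-proton exchangers of other membranes, 0 were higher and 2 lower of 5 tested in young mice, and 1 was higher and 2 lower of 4 tested in aged mice. Slc9a5 and Slc9a9 fell from ISC to AE at both ages. Slc9a5 was at 20.6, 8.4 and 11.9 CPM in young and 15, 10.4 and 21.7 CPM in aged ISC. Slc9a5 stood at 4.42, 1.9 and 3.41 CPM in young AE and 0.856, 2.87 and 2.73 CPM in the aged AE libraries. For Slc9a5 each ISC library was above each AE library, with 8.4 CPM in the lowest ISC and 4.42 CPM in the highest AE library. It fell by 2.06 ± 0.42 log2 units in young mice (FDR = 0.0039) and fell by 2.94 ± 0.42 in aged mice (FDR = 0.000161). The endosomal Slc9a9 was low, at 0.765, 1.14 and 2.19 CPM in young and 1.8, 1.73 and 1.73 CPM in aged ISC. Slc9a9 stood at 0.164, 0.165 and 0.12 CPM in young AE and 0.0951, 0.179 and 0.109 CPM in the aged AE libraries. For Slc9a9 each ISC library was above each AE library, with 0.765 CPM in the lowest ISC and 0.179 CPM in the highest AE library. It fell in young mice by 3.33 ± 0.56 log2 units (FDR = 0.000877), and with at most 3 counts in every aged AE library it was at least 5.96-fold lower there (FDR = 3.10e-05).

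In the Slc4 family of bicarbonate carriers 7 of 8 tested members were higher in young AE and 6 of 7 in aged AE, and 0 were lower. Slc4a4, an electrogenic sodium-bicarbonate cotransporter of the basolateral side, was at 71, 63.4 and 82.5 CPM in young and 59.1, 67.5 and 88 CPM in aged ISC. Slc4a4 reached 136, 216 and 149 CPM in young AE and 139, 174 and 188 CPM in the aged AE libraries. For Slc4a4 the lowest AE library was above the highest ISC library, 136 against 88 CPM. It rose by 1.21 ± 0.21 log2 units in young mice (FDR = 0.00203) and by 1.15 ± 0.19 in aged mice (FDR = 0.000475). Slc4a7, an electroneutral cotransporter, varied more within AE, at 120.3, 280.2 and 240.2 CPM in young and 244, 354 and 99.6 CPM in aged AE, against 28.1 to 46.5 CPM in ISC. It rose by 2.55 ± 0.33 log2 units in young mice (FDR = 0.000589) and by 2.72 ± 0.40 in aged mice (FDR = 0.000197). The sodium-driven exchanger Slc4a8 ranged from 0.755 to 3.03 CPM over ISC and from 8.52 to 17.8 CPM over AE libraries. It rose by 2.25 ± 0.40 log2 units in young mice (FDR = 0.00215) and by 3.07 ± 0.31 in aged mice (FDR = 1.71e-05).

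Slc4a2, the anion exchanger found in most tissues, had the smallest rise among the called members of this family that are given a fold and not a bound. It ranged from 109 to 133 CPM over ISC and from 158 to 203 CPM over AE libraries, without overlap. It rose by 0.45 ± 0.14 log2 units in young mice (FDR = 0.0266) and by 0.59 ± 0.15 in aged mice (FDR = 0.00615). The young call was lost with upper-quartile scaling (FDR = 0.0804), without young ISC replicate 2 (FDR = 0.0895), without young ISC replicate 3 (FDR = 0.0727), without young AE replicate 1 (FDR = 0.0896), without young AE replicate 2 (FDR = 0.0676) and without young AE replicate 3 (FDR = 0.127). In the reference annotation 13.7% of its exon length is shared with genes on the opposite strand, among them Fastk. Slc4a11 was near the limit of detection, with at most 3 counts in every ISC library and 2.51 CPM in its highest library, aged AE replicate 3. That library held 23 counts and the other aged AE libraries 0 and 2, so the aged value rests on it. Slc4a11 was at least 1.16-fold higher in young AE (FDR = 0.038) and at least 7.09-fold higher in aged AE (FDR = 0.0248). The young call was lost with DESeq2 (FDR = 0.134), with no filter on low counts (FDR = 0.0515), in 1 fit of all 4 groups (FDR = 0.118), with the replicate block (FDR = 0.109), without young ISC replicate 2 (FDR = 0.108), without young ISC replicate 3 (FDR = 0.101) and without young AE replicate 2 (FDR = 0.0718), and the row had too few counts to be tested with the filterByExpr filter and without young AE replicate 3. The aged call was lost without aged ISC replicate 1 (FDR = 0.104) and without aged ISC replicate 2 (FDR = 0.0682), and the row had too few counts to be tested with the filterByExpr filter and without aged AE replicate 3. Slc4a9 was called in young mice only through counts at the limit of detection, at 0 CPM in all ISC libraries and at most 0.414 CPM in AE. That call was lost with DESeq2 (FDR = 0.0972), with the replicate block (FDR = 0.0563), without young ISC replicate 1 (FDR = 0.084), without young ISC replicate 2 (FDR = 0.0865), without young ISC replicate 3 (FDR = 0.0803) and without young AE replicate 2 (FDR = 0.0777), and the row had too few counts to be tested with the filterByExpr filter and without young AE replicate 3.

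Among members above the limit of detection in both cell types the largest fall was that of Slc12a2, the basolateral sodium-potassium-chloride cotransporter that loads crypt cells with chloride for secretion. It was at 1408, 1224 and 1134 CPM in young and 1038, 1142 and 1458 CPM in aged ISC. Slc12a2 stood at 35.9, 118.2 and 18.8 CPM in young AE and 19.3, 41.7 and 28.8 CPM in the aged AE libraries. For Slc12a2 each ISC library was above each AE library, with 1038 CPM in the lowest ISC and 118.2 CPM in the highest AE library. The highest AE value, in young AE replicate 2, came with the highest summed stem cell markers of the AE libraries, 534 CPM against 82.2 to 206 CPM in the other 5. It fell by 4.45 ± 0.66 log2 units in young mice (FDR = 0.000975) and fell by 5.41 ± 0.35 in aged mice (FDR = 1.10e-06), or 21.9-fold and 42.4-fold lower in AE. The young value was -5.64 without young AE replicate 2. Per kb of exon it was the highest member in ISC, with 115 ± 12.8 CPM in young and 111 ± 20 CPM in aged ISC.

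Of the cation-chloride cotransporters, 3 were higher and 2 lower in AE at each age, of 8 tested in young and 7 in aged mice. Slc12a7, a potassium-chloride cotransporter of the basolateral side, was at 169, 134 and 144 CPM in young and 138, 130.4 and 188 CPM in aged ISC. Slc12a7 reached 421, 323 and 374 CPM in young AE and 332, 374 and 426 CPM in the aged AE libraries. For Slc12a7 the lowest AE library was above the highest ISC library, 323 against 188 CPM. It rose by 1.32 ± 0.18 log2 units in young mice (FDR = 0.000649) and by 1.24 ± 0.19 in aged mice (FDR = 0.000297). Slc12a8, a member with a disputed substrate, rose in young mice by 0.99 ± 0.15 log2 units (FDR = 0.000905) and was at 0.44 ± 0.19 in aged mice (FDR = 0.064), where 6 of the alternatives called it. The thiazide-sensitive cotransporter of the kidney, Slc12a3, held at most 0.755 CPM in ISC and at most 3 counts in every AE library, at least 1.53-fold lower in young AE (FDR = 0.0162) and at least 1.72-fold lower in aged AE (FDR = 0.0302). Its young call was lost with DESeq2 (FDR = 0.0662), without young ISC replicate 3 (FDR = 0.0593) and without young AE replicate 3 (FDR = 0.0633), and the row had too few counts to be tested with the filterByExpr filter. Its aged call was lost with DESeq2 (FDR = 0.0642), without aged ISC replicate 2 (FDR = 0.0512), without aged ISC replicate 3 (FDR = 0.0664), without aged AE replicate 1 (FDR = 0.0868), without aged AE replicate 2 (FDR = 0.0977) and without aged AE replicate 3 (FDR = 0.0878), and the row had too few counts to be tested with the filterByExpr filter.

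The 3 phosphate carriers of the Slc34 family were higher in AE at both ages, while the ubiquitous Slc20a2 was lower. Slc34a2, the sodium-phosphate cotransporter of the intestinal brush border, was at 29.3, 7.89 and 19 CPM in young and 1.09, 1.24 and 9.15 CPM in aged ISC. Slc34a2 reached 653, 285 and 343 CPM in young AE and 189.9, 198 and 719 CPM in the aged AE libraries. For Slc34a2 the lowest AE library was above the highest ISC library, 189.9 against 29.3 CPM. It rose by 4.51 ± 0.54 log2 units in young mice (FDR = 0.000421) and by 6.53 ± 0.91 in aged mice (FDR = 0.000149), or 22.8-fold and 92.3-fold. The aged value was 5.62 without aged AE replicate 3 and 8.23 without aged ISC replicate 3. The kidney types Slc34a1 and Slc34a3 were low, at most 2 CPM and 4.8 CPM in any library, and were also called at both ages. With at most 3 counts in every ISC library, Slc34a3 was at least 4.79-fold higher in young AE (FDR = 0.00536) and at least 20-fold higher in aged AE (FDR = 0.000218). Slc34a1 was at least 6.92-fold higher in young AE (FDR = 0.00114), and its aged log2 fold change was 3.35 ± 0.64 (FDR = 0.000939), with 2.65 without aged ISC replicate 1 and 4.10 without aged ISC replicate 3. The filterByExpr filter left both out in young mice.

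The ubiquitous phosphate carriers Slc20a1 and Slc20a2 differed in direction. Slc20a1 was at 18.4, 20.3 and 20.4 CPM in young and 21.1, 21 and 20.3 CPM in aged ISC. Slc20a1 reached 14.2, 52 and 54.7 CPM in young AE and 80.2, 88.1 and 56.6 CPM in the aged AE libraries. For Slc20a1 the ISC and AE libraries overlapped, since young AE replicate 1 was below every ISC library. It rose in aged mice by 1.78 ± 0.19 log2 units (FDR = 2.40e-05) and was at 1.04 ± 0.43 in young mice (FDR = 0.0726), where the call was made without young AE replicate 1 (1.41, FDR = 0.00159), with DESeq2 (FDR = 0.0424) and in 1 fit of all 4 groups (FDR = 0.0242). In the reference annotation 13.1% of its exon length is shared with genes on the opposite strand. Slc20a2 ranged from 30.8 to 42.8 CPM over ISC and from 13.3 to 32.2 CPM over AE libraries. It fell by 0.89 ± 0.26 log2 units in young mice (FDR = 0.0188) and fell by 0.53 ± 0.20 in aged mice (FDR = 0.0375). The young call was lost without young ISC replicate 1 (FDR = 0.0614), and the aged call with DESeq2 (FDR = 0.0759), with RLE scaling (FDR = 0.0645), in 1 fit of all 4 groups (FDR = 0.11), without aged ISC replicate 1 (FDR = 0.0603), without aged ISC replicate 3 (FDR = 0.0844), without aged AE replicate 1 (FDR = 0.119) and without aged AE replicate 3 (FDR = 0.119). Slc26a2, a sulfate carrier, was at 91.6, 99 and 87.5 CPM in young and 83.6, 65 and 110.1 CPM in aged ISC. Slc26a2 reached 353, 422 and 451 CPM in young AE and 353, 450.3 and 547 CPM in the aged AE libraries. For Slc26a2 the lowest AE library was above the highest ISC library, 353 against 110.1 CPM. It rose by 2.14 ± 0.17 log2 units in young mice (FDR = 0.000133) and by 2.31 ± 0.24 in aged mice (FDR = 2.03e-05), and in young mice its FDR was the lowest of any member.

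Of the 3 magnesium carriers 2 were higher and 1 lower in AE at both ages. Slc41a2 was at 7.58, 7.61 and 16.2 CPM in young and 4.55, 8.47 and 6.66 CPM in aged ISC. Slc41a2 reached 87.9, 104 and 118.4 CPM in young AE and 97.4, 153 and 136 CPM in the aged AE libraries. For Slc41a2 the lowest AE library was above the highest ISC library, 87.9 against 16.2 CPM. It rose by 3.30 ± 0.33 log2 units in young mice (FDR = 0.000232) and by 4.24 ± 0.28 in aged mice (FDR = 1.26e-06). Slc41a3 lay between 0.637 to 1.4 CPM over ISC and between 8.76 to 12.1 CPM over AE libraries. It rose by 3.12 ± 0.34 log2 units in young mice (FDR = 0.000315) and by 3.66 ± 0.27 in aged mice (FDR = 2.32e-06). Slc41a1, a magnesium carrier of the plasma membrane, was instead at 22.1, 15.8 and 14.7 CPM in young and 14.9, 13.5 and 19.7 CPM in aged ISC. Slc41a1 stood at 2.46, 5.21 and 1.41 CPM in young AE and 1.43, 1.7 and 1.96 CPM in the aged AE libraries. For Slc41a1 each ISC library was above each AE library, with 13.5 CPM in the lowest ISC and 5.21 CPM in the highest AE library. Its level fell by 2.63 ± 0.47 log2 units in young mice (FDR = 0.0021) and fell by 3.31 ± 0.27 in aged mice (FDR = 4.27e-06), and the young value was -3.36 without young AE replicate 2. Sodium-calcium exchangers were low, with 3 of 8 members tested. Slc8a1 ranged from 0.108 to 0.393 CPM over ISC and from 0.538 to 7.86 CPM over AE libraries, highest in young AE replicate 1. It rose by 3.85 ± 0.91 log2 units in young mice (FDR = 0.00717) and by 2.41 ± 0.63 in aged mice (FDR = 0.00719). The young value was 2.68 without young AE replicate 1 and 4.45 without young ISC replicate 3, and the aged one 3.19 without aged ISC replicate 1. Slc8a3 was at least 4-fold higher in young AE (FDR = 0.0119) with an aged log2 fold change of 3.91 ± 0.81 (FDR = 0.00111), which was 3.07 without aged ISC replicate 1 and 4.84 without aged ISC replicate 3. The filterByExpr filter left Slc8a3 out at both ages and Slc8a1 in aged mice. Slc24a3, at 0.618 to 0.933 CPM in ISC, fell by 1.93 ± 0.48 log2 units in young mice (FDR = 0.0071), a call lost without young AE replicate 3 (FDR = 0.0778), and was at least 2.84-fold lower in aged AE (FDR = 0.00301).

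Of the iron carriers, 2 were tested. Slc11a2, which brings ferrous iron across the brush border, was at 44.1, 46.8 and 47.6 CPM in young and 39.1, 47.8 and 57.3 CPM in aged ISC. Slc11a2 reached 97.1, 119.6 and 109 CPM in young AE and 111, 136 and 102 CPM in the aged AE libraries. For Slc11a2 the lowest AE library was above the highest ISC library, 97.1 against 57.3 CPM. It rose by 1.23 ± 0.14 log2 units in young mice (FDR = 0.0004) and by 1.21 ± 0.19 in aged mice (FDR = 0.000321). Slc40a1, ferroportin, the exporter that releases iron to the blood, was at 3.19, 6.36 and 18.9 CPM in young and 3.76, 9.98 and 3.38 CPM in aged ISC. Slc40a1 reached 18.5, 78.8 and 39 CPM in young AE and 13.9, 54.9 and 1.64 CPM in the aged AE libraries. For Slc40a1 the ISC and AE libraries overlapped. Aged AE replicate 3 was below every ISC library. It rose in young mice by 2.25 ± 0.70 log2 units (FDR = 0.0251), a call lost without young ISC replicate 1 (FDR = 0.0726), without young ISC replicate 2 (FDR = 0.0867) and without young AE replicate 2 (FDR = 0.0819). Its young value was 1.53 without young AE replicate 2 and 3.24 without young ISC replicate 3. Its aged log2 fold change was 2.02 ± 0.88 (FDR = 0.0669), and called with the replicate block (1.43, FDR = 0.0351), with no filter on low counts (FDR = 0.0486), without aged ISC replicate 2 (FDR = 0.047) and without aged AE replicate 3 (FDR = 0.00567). Over the libraries left out it ranged from 0.40 to 2.65, the lowest without aged AE replicate 2. Slc31a1, the copper importer, was at 109, 96.8 and 131 CPM in young and 85.9, 102 and 90.3 CPM in aged ISC. Slc31a1 reached 349, 320.4 and 447 CPM in young AE and 393, 409 and 421 CPM in the aged AE libraries. For Slc31a1 the lowest AE library was above the highest ISC library, 320.4 against 131 CPM. It rose by 1.73 ± 0.20 log2 units in young mice (FDR = 0.000368) and by 2.06 ± 0.16 in aged mice (FDR = 2.94e-06). Slc31a2, which lies on the same strand of chromosome 4 as Slc31a1, was at 5.35 to 9.27 CPM in all libraries and not called, with log2 fold changes of 0.42 ± 0.23 (FDR = 0.149) and 0.38 ± 0.21 (FDR = 0.129).

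Carriers that move zinc out of the cytosol were mostly higher in AE, 8 of 9 tested in young and 7 of 8 in aged mice. Slc30a10, the manganese exporter, had the steepest rise among them. It was at 1.85, 1.53 and 7.58 CPM in young and 1.32, 3.35 and 1.73 CPM in aged ISC. Slc30a10 reached 61.7, 64.9 and 101 CPM in young AE and 74.5, 122 and 90.7 CPM in the aged AE libraries. For Slc30a10 the lowest AE library was above the highest ISC library, 61.7 against 7.58 CPM. The highest ISC value was in young ISC replicate 3, the ISC library with the highest summed enterocyte markers. It rose by 4.37 ± 0.60 log2 units in young mice (FDR = 0.000692) and by 5.47 ± 0.36 in aged mice (FDR = 1.30e-06), or 20.6-fold and 44.3-fold. The young value was 5.49 without young ISC replicate 3. In the reference annotation 9.13% of its exon length is shared with genes on the opposite strand, and 8.92% of that of Slc30a1. Slc30a1, the zinc exporter of the plasma membrane, was at 9.43, 14.1 and 23.2 CPM in young and 17.8, 20.8 and 15.5 CPM in aged ISC. Slc30a1 reached 43, 36.1 and 58.9 CPM in young AE and 54.7, 50.1 and 49.2 CPM in the aged AE libraries. For Slc30a1 the lowest AE library was above the highest ISC library, 36.1 against 23.2 CPM. It rose by 1.56 ± 0.34 log2 units in young mice (FDR = 0.00526) and by 1.44 ± 0.16 in aged mice (FDR = 3.78e-05). Slc30a2, which fills vesicles with zinc and is known from Paneth and mammary cells, was at 35.2, 24.8 and 55.7 CPM in young and 51.2, 56.8 and 45 CPM in aged ISC. Slc30a2 reached 83.1, 103 and 186 CPM in young AE and 232, 225 and 172 CPM in the aged AE libraries. For Slc30a2 the lowest AE library was above the highest ISC library, 83.1 against 56.8 CPM. It rose by 1.69 ± 0.38 log2 units in young mice (FDR = 0.00609) and by 1.97 ± 0.18 in aged mice (FDR = 8.23e-06). Paneth markers summed to 551 to 1641 CPM in ISC against 52.1 to 227 CPM in AE, and the part of Paneth cells in the Slc30a2 values was not tested.

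Zinc carriers of the secretory pathway had smaller rises. Slc30a5, which works as a pair with Slc30a6 in the early secretory pathway, ranged from 73 to 90.5 CPM over ISC and from 156 to 191 CPM over AE libraries. It rose by 0.94 ± 0.15 log2 units in young mice (FDR = 0.00125) and by 1.03 ± 0.15 in aged mice (FDR = 0.000167). Slc30a6 rose by 0.84 ± 0.19 log2 units in young mice (FDR = 0.00613) and by 0.73 ± 0.15 in aged mice (FDR = 0.00177). Slc30a4, a carrier of endosomal vesicles, rose by 1.25 ± 0.22 log2 units in young mice (FDR = 0.00189) and by 1.16 ± 0.17 in aged mice (FDR = 0.000167). The lone call in the other direction was Slc30a3 in young mice, which rests on 0.0561 to 0.51 CPM in young ISC and 0 CPM in all AE libraries. It was lost with DESeq2 (FDR = 0.0553), with the replicate block (FDR = 0.0794) and without young AE replicate 3 (FDR = 0.148), and the row had too few counts to be tested with the filterByExpr filter, without young ISC replicate 1 and without young ISC replicate 2.

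Carriers that bring zinc and manganese into the cytosol split by member, 5 higher and 4 lower of 13 tested in young mice and 5 higher and 5 lower in aged mice, with median log2 fold changes of -0.05 and 0.12. Slc39a4, the brush border zinc importer lost in acrodermatitis enteropathica, was at 89, 70.2 and 117.8 CPM in young and 57.8, 86.6 and 77.2 CPM in aged ISC. Slc39a4 reached 396, 384 and 600.0 CPM in young AE and 507, 528 and 452 CPM in the aged AE libraries. For Slc39a4 the lowest AE library was above the highest ISC library, 384 against 117.8 CPM. It rose by 2.32 ± 0.27 log2 units in young mice (FDR = 0.000372) and by 2.68 ± 0.20 in aged mice (FDR = 2.79e-06). Slc39a14, which carries zinc, manganese and iron, ranged from 71.7 to 98.1 CPM over ISC and from 212 to 323 CPM over AE libraries. It rose by 1.45 ± 0.17 log2 units in young mice (FDR = 0.000375) and by 1.67 ± 0.18 in aged mice (FDR = 2.76e-05). Slc39a5, the zinc and manganese carrier of the basolateral side, was already high in ISC, at 153, 169 and 217 CPM in young and 176, 213 and 148 CPM in aged ISC. Slc39a5 reached 316, 314 and 339 CPM in young AE and 331, 307 and 297 CPM in the aged AE libraries. For Slc39a5 the lowest AE library was above the highest ISC library, 297 against 217 CPM. It rose by 0.84 ± 0.18 log2 units in young mice (FDR = 0.00473) and by 0.73 ± 0.18 in aged mice (FDR = 0.00488). Slc39a9, a carrier of the Golgi, rose by 1.22 ± 0.15 log2 units in young mice (FDR = 0.000442) and by 1.32 ± 0.20 in aged mice (FDR = 0.000256).

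Lower in AE at both ages were Slc39a6, Slc39a8, Slc39a10 and Slc39a13. Slc39a2 was lower in aged mice (log2 fold change -1.03 ± 0.40, FDR = 0.0452), a call lost with DESeq2 (FDR = 0.104), with RLE scaling (FDR = 0.0616), with no filter on low counts (FDR = 0.0573), in 1 fit of all 4 groups (FDR = 0.157), without aged ISC replicate 1 (FDR = 0.107), without aged ISC replicate 2 (FDR = 0.0609), without aged ISC replicate 3 (FDR = 0.0572), without aged AE replicate 2 (FDR = 0.138) and without aged AE replicate 3 (FDR = 0.144). Slc39a8, a zinc and manganese carrier of the plasma membrane, was at 29.1, 36.2 and 24.1 CPM in young and 33.8, 35.1 and 42.9 CPM in aged ISC. Slc39a8 stood at 13.2, 14.6 and 11.7 CPM in young AE and 11.6, 11.5 and 8.51 CPM in the aged AE libraries. For Slc39a8 each ISC library was above each AE library, with 24.1 CPM in the lowest ISC and 14.6 CPM in the highest AE library. Its level fell by 1.18 ± 0.21 log2 units in young mice (FDR = 0.00197) and fell by 1.89 ± 0.19 in aged mice (FDR = 1.76e-05). Slc39a10 was at 21.6, 16.3 and 10.4 CPM in young and 7.43, 7.02 and 16.5 CPM in aged ISC. Slc39a10 stood at 2.46, 4.63 and 2.34 CPM in young AE and 1.71, 1.97 and 2.4 CPM in the aged AE libraries. For Slc39a10 each ISC library was above each AE library, with 7.02 CPM in the lowest ISC and 4.63 CPM in the highest AE library. It fell by 2.40 ± 0.38 log2 units in young mice (FDR = 0.00127) and fell by 2.42 ± 0.41 in aged mice (FDR = 0.000515). Slc39a6, which pairs with Slc39a10, ranged from 6.06 to 9.51 CPM over ISC and from 2.73 to 4.42 CPM over AE libraries. It fell by 1.10 ± 0.29 log2 units in young mice (FDR = 0.0123) and fell by 1.423 ± 0.23 in aged mice (FDR = 0.000402). The young call was lost without young ISC replicate 2 (FDR = 0.053). Slc39a13, a carrier of intracellular vesicles, ranged from 5.28 to 8.64 CPM over ISC and from 2.66 to 4.34 CPM over AE libraries. It fell by 0.85 ± 0.29 log2 units in young mice (FDR = 0.0385) and fell by 1.43 ± 0.25 in aged mice (FDR = 0.000615). The young call of Slc39a13 was lost without young ISC replicate 1 (FDR = 0.108), without young ISC replicate 2 (FDR = 0.108), without young ISC replicate 3 (FDR = 0.0644) and without young AE replicate 3 (FDR = 0.0816). Slc39a7, which releases zinc from the endoplasmic reticulum, was at 104 to 149 CPM in all libraries and not called, with log2 fold changes of 0.15 ± 0.13 (FDR = 0.365) and 0.17 ± 0.15 (FDR = 0.311). In the reference annotation 80.7% of its exon length is shared with Gm20427 on the same strand, so its counts are uncertain.

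Of the 3 members that are not carriers, Slc9a3r1, the scaffold that anchors Slc9a3 and other carriers to the brush border, was the most abundant member in AE. It was at 158, 149 and 210.1 CPM in young and 99.4, 152 and 115 CPM in aged ISC. Slc9a3r1 reached 1333, 1904 and 1564 CPM in young AE and 1966, 2149 and 1916 CPM in the aged AE libraries. For Slc9a3r1 the lowest AE library was above the highest ISC library, 1333 against 210.1 CPM. Per kb of exon its level was 831 ± 149 CPM in young and 1044 ± 63.7 CPM in aged AE (SD, n = 3). It rose by 3.21 ± 0.26 log2 units in young mice (FDR = 0.000141) and by 3.97 ± 0.27 in aged mice (FDR = 1.55e-06). The related Slc9a3r2 ranged from 0.888 to 1.76 CPM over ISC and from 0.285 to 0.993 CPM over AE libraries. It fell by 1.43 ± 0.50 log2 units in young mice (FDR = 0.0399) and fell by 1.52 ± 0.50 in aged mice (FDR = 0.0217). Its young call was lost with DESeq2 (FDR = 0.0688), with no filter on low counts (FDR = 0.0557), without young ISC replicate 1 (FDR = 0.0777), without young ISC replicate 2 (FDR = 0.137), without young ISC replicate 3 (FDR = 0.0593), without young AE replicate 1 (FDR = 0.0866) and without young AE replicate 3 (FDR = 0.142), and its aged call with DESeq2 (FDR = 0.0641), without aged ISC replicate 1 (FDR = 0.056), without aged AE replicate 1 (FDR = 0.0868) and without aged AE replicate 3 (FDR = 0.0576). Slc4a1ap was at 16.9 to 21.8 CPM in all libraries and not called.

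Compared per kb of exon, which allows levels of different genes to be set side by side, the most abundant carriers of AE were Slc39a4, Slc39a5 and Slc26a6. Slc39a4 was at 148 ± 39 CPM per kb in young and 159.6 ± 12.6 in aged AE, Slc39a5 at 145 ± 6.11 and 140.0 ± 7.77, and Slc26a6 at 136 ± 4.96 and 142 ± 6.04 (SD, n = 3). In young AE these carriers differed by less than the SD of Slc39a4. In aged AE Slc39a5 and Slc26a6 differed by less than their SDs, and Slc39a4 lay above both by more than its own. Slc31a1 followed at 86.9 ± 15.5 and 95.2 ± 3.3, and Slc34a2 at 85.2 ± 39.4 and 73.7 ± 60.5. In ISC the carriers next to Slc12a2 were Slc39a5, at 80.8 ± 15 and 80.3 ± 14.6, then Slc39a7, at 47.8 ± 1.79 and 45.6 ± 4.66, a row whose counts are uncertain as said above.

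**Figure D3:**
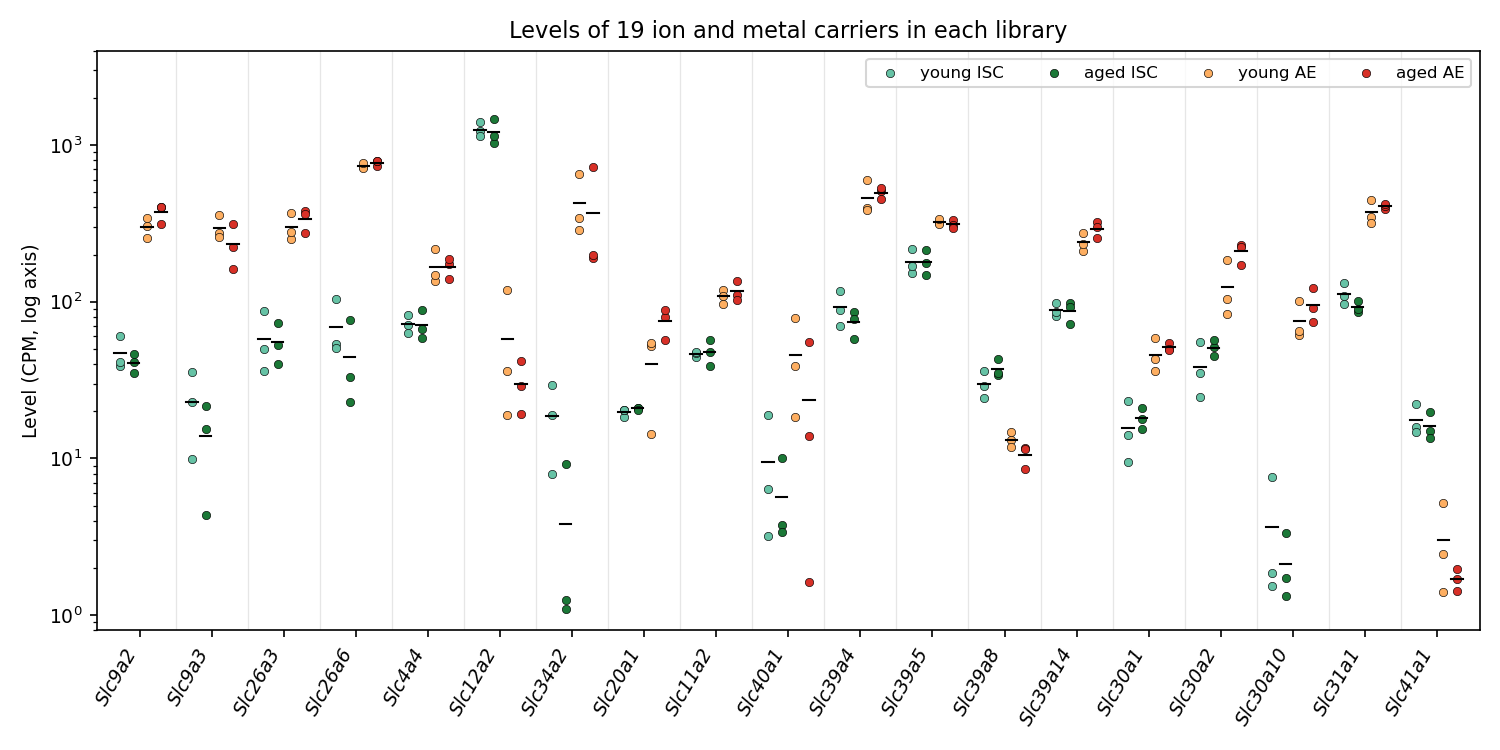
Level in CPM (y axis, log scale) of 19 carriers in each of the 12 libraries, with points coloured by cell type and age and a bar at the mean of 3. Slc12a2, Slc39a8 and Slc41a1 are higher in ISC, the other 16 have higher means in AE, and Slc34a2 and Slc40a1 show the widest spread within groups.

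Other genes of the same pathways were counted from lists drawn up by pathway, with earlier results of these data known. The pathway counts are set beside the shares over all rows, 29.0% higher and 26.7% lower in young AE. In aged AE these shares were 30.7% higher and 34.3% lower. For iron, 6 of 11 tested genes were higher in AE and 3 lower at each age. Heph, the oxidase that works with Slc40a1, rose by 2.85 ± 0.21 log2 units in young mice (FDR = 0.000114) and by 3.23 ± 0.25 in aged mice (FDR = 3.06e-06). Tfrc, the receptor that imports transferrin-bound iron, fell by 1.47 ± 0.37 log2 units in young mice (FDR = 0.0104) and fell by 1.92 ± 0.22 in aged mice (FDR = 4.21e-05). For zinc and copper, 4 of 9 were higher in young and 5 in aged mice, with 0 lower. The metallothionein Mt1 was not called and varied widely, at 69.5, 105 and 201 CPM in young and 299.8, 208 and 71.9 CPM in aged ISC. Mt1 reached 48.1, 30.4 and 353 CPM in young AE and 536, 268 and 71.9 CPM in the aged AE libraries. For chloride and bicarbonate, 8 of 19 were higher and 6 lower in young mice, and 7 of 17 higher and 7 lower in aged mice.

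Of that list, Cftr, the chloride channel of the crypt, was at 236, 223 and 229 CPM in young and 219, 251 and 279.8 CPM in aged ISC. Cftr stood at 50.2, 119 and 40.3 CPM in young AE and 56.9, 73.5 and 52.7 CPM in the aged AE libraries. For Cftr each ISC library was above each AE library, with 219 CPM in the lowest ISC and 119 CPM in the highest AE library. It fell by 1.72 ± 0.38 log2 units in young mice (FDR = 0.00581) and fell by 2.103 ± 0.19 in aged mice (FDR = 7.79e-06). The potassium channel subunits Kcnq1 and Kcne3 were also lower in AE at both ages, as was the kinase Stk39, which activates Slc12a2. Kcne3 fell by 3.59 ± 0.80 log2 units in young mice (FDR = 0.00619) and fell by 4.96 ± 0.30 in aged mice (FDR = 7.78e-07). Carbonic anhydrase Car2 and the scaffold Pdzk1 were higher at both ages. Pdzk1 rose by 4.48 ± 0.48 log2 units in young mice (FDR = 0.000281) and by 7.16 ± 0.39 in aged mice (FDR = 5.20e-07). For calcium, magnesium and phosphate, 4 of 9 were higher in young and 5 of 8 in aged mice, with 0 lower. The duodenal calcium channel Trpv6 had at most 0.144 CPM in any library.

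No member differed with age at an FDR under 0.05. In ISC 0 of 66 tested members were called, as 0% of all rows were, by edgeR, and 4 had an unadjusted P under 0.05, which is 6.06%, where 5.12% of all rows did. DESeq2 called 0 members in ISC and 0.373% of all rows. The 3 aged ISC libraries all lay above the 3 young ones for 5 members, where 4.42% of all rows did, and all below for 1, where 4.44% did. In AE 0 of 71 tested members were called by edgeR, as 0% of all rows were, and 2 had an unadjusted P under 0.05, which is 2.82%, where 4.78% of all rows did. DESeq2 called 0 members in AE and 0.123% of all rows. The aged AE libraries all lay above for 2 members, where 4.01% of all rows did, and all below for 4, where 6.94% did. The median log2 fold change of aged against young was -0.04 over the members in ISC, beside 0.01 over all rows, and 0.06 in AE, beside -0.04.

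In ISC the smallest unadjusted P was that of Slc34a2, which was at 29.3, 7.89 and 19 CPM in young and 1.09, 1.24 and 9.15 CPM in aged ISC. The groups overlapped, since aged ISC replicate 3 was above young ISC replicate 2, and the log2 fold change was -2.30 ± 0.78 (FDR = 0.876). Slc4a8 was at 1.53, 2.84 and 3.03 CPM in young and 1.4, 1.51 and 0.755 CPM in aged ISC, without overlap, with a log2 fold change of -1.01 ± 0.40 (FDR = 0.952). Slc9a3r1 was at 158, 149 and 210.1 CPM in young and 99.4, 152 and 115 CPM in aged ISC, which overlapped, with a log2 fold change of -0.49 ± 0.20 (FDR = 0.963). On the other side, Slc12a8 was at 46.3, 43.4 and 43.8 CPM in young and 57, 56.5 and 52.4 CPM in aged ISC, without overlap, with a log2 fold change of 0.32 ± 0.12 (FDR = 0.946). Slc39a13 had a log2 fold change of 0.39 ± 0.21 (FDR = 1), and Slc4a3, with at most 3 counts in every young ISC library, had 0.133 to 0.337 CPM in aged ISC (FDR = 1).

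Enterocyte markers also differed among the ISC libraries. The 20 markers summed to 5626, 5350.5 and 12640.5 CPM in young ISC and 2605, 7429 and 4393 CPM in aged ISC, and 19 of 20 had a negative log2 fold change with age, with a median of -0.94 and 0 called. For 5 members that are high in AE, chosen after their values were seen, young ISC replicate 3, with the highest marker sum, was also the highest ISC library: Slc26a6 at 104 CPM, Slc9a3 at 35.8 CPM, Slc41a2 at 16.2 CPM, Slc30a10 at 7.58 CPM and Slc40a1 at 18.9 CPM. Other members high in AE peaked elsewhere among the ISC libraries. Slc34a2 was highest in young ISC replicate 1, at 29.3 CPM. Slc4a4 was highest in aged ISC replicate 3, at 88 CPM, and Slc30a2 in aged ISC replicate 2, at 56.8 CPM. How many members followed each pattern was not counted, and the part of enterocyte transcripts in the ISC differences was not tested.

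In AE the smallest unadjusted P was that of Slc30a2, at 83.1, 103 and 186 CPM in young and 232, 225 and 172 CPM in aged AE. The groups overlapped, because aged AE replicate 3 was below young AE replicate 3, and the log2 fold change was 0.77 ± 0.29 (FDR = 0.833). Slc34a3 was at 0.327, 1.32 and 0.885 CPM in young and 1.71, 1.08 and 4.8 CPM in aged AE, which overlapped, with a log2 fold change of 1.52 ± 0.64 (FDR = 0.833). Slc8a1 had a log2 fold change of -1.40 ± 0.81 (FDR = 0.833). Slc24a3 was at most 0.248 CPM in any AE library (FDR = 0.833), with at most 1 count in every aged AE library. Slc12a2 had a log2 fold change of -0.92 ± 0.61 (FDR = 0.833), and without young AE replicate 2, its highest AE library, it was at 0.17. Leaving out young AE replicate 3, the deepest library, raised the members with an unadjusted P under 0.05 from 2 of 71 tested to 11 of 63 tested. The lowest FDR among them was 0.171. The share over all rows in that fit was not counted, so this rise is not read as a result about the members.

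**Figure D4:**
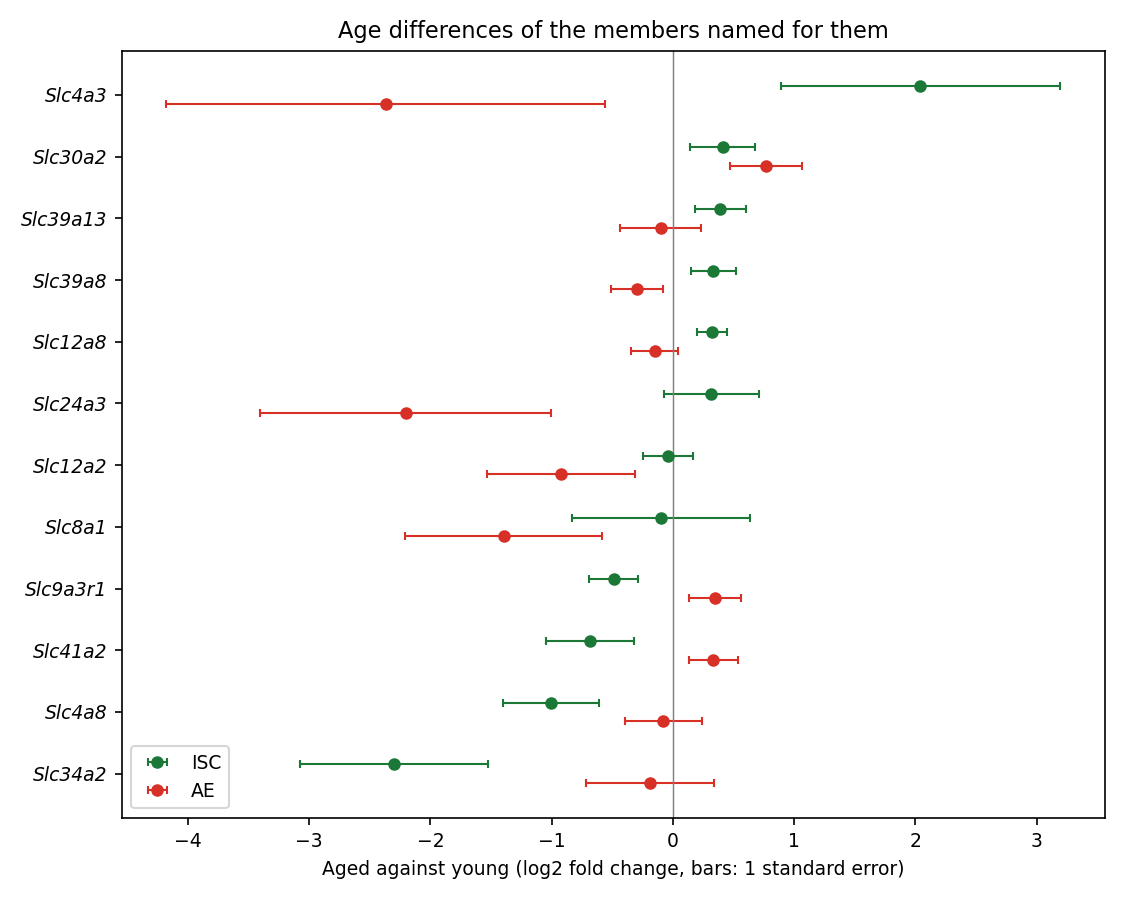
Log2 fold change of aged against young (x axis) in ISC (green) and AE (red) for 12 members named for their age differences, with bars of 1 standard error from edgeR. None passed the FDR threshold in either cell type. Slc4a3 and Slc24a3 rest on a few counts per library and are drawn at their fitted values.

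Whether age changed a member differently in AE and ISC was tested over all 12 libraries. This called 0 of 73 members and 0.00575% of all rows by edgeR, and 0 members and 0.340% of all rows by DESeq2. An unadjusted P under 0.05 was found for 4 members, which is 5.48%, where 3.98% of all rows had one. These differences of log2 fold changes were, for Slc9a3r1, 0.83 ± 0.31 (FDR = 1), for Slc41a2 1.00 ± 0.43 (FDR = 1), and for Slc39a8 -0.64 ± 0.27 (FDR = 1), all from edgeR, where a positive value stands for a larger aged-to-young ratio in AE. The fourth was Slc24a3, which had at most 1 count in every aged AE library, so no value is given. For Slc34a2 the difference was 2.09 ± 1.06 (FDR = 1) and for Slc12a8 -0.49 ± 0.23 (FDR = 1). With the replicate block 8 members had an unadjusted P under 0.05, and the lowest FDR among members was 0.0933. Without young ISC replicate 3, which holds the most enterocyte transcripts of the ISC libraries, the number was 0, without aged ISC replicate 1 it was 1, and without young AE replicate 3 it was 8. The shares over all rows in these alternative fits were not counted, so these numbers are not read as results about the members.

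In each of the 4 groups the library with the most Slc34a2 had the least Slc40a1. These are not 4 independent cases, since ISC and AE libraries pair by code and the same replicate stood out in both cell types. In aged mice replicate 3, whose ISC and AE libraries share a code, had the highest Slc34a2, 9.15 CPM for ISC and 719 CPM for AE, and the lowest Slc40a1, at 3.38 CPM and 1.64 CPM. In young mice replicate 1 had the highest Slc34a2, at 29.3 CPM and 653 CPM, and the lowest Slc40a1, at 3.19 CPM and 18.5 CPM. Markers of intestinal regions and S100g were set beside them, chosen after these values were seen. Of the distal markers, Osr2 was at 39, 22.8 and 30.8 CPM in young and 35.5, 19.9 and 68.7 CPM in aged ISC. Osr2 reached 77.1, 69.2 and 82.1 CPM in young AE and 71.8, 80.6 and 121 CPM in the aged AE libraries. It was highest in both libraries of aged replicate 3. Fabp6, the ileal bile acid binding protein, was at 7.15, 9.23 and 38.7 CPM in aged ISC, highest in replicate 3, and 508, 524 and 506 CPM in aged AE, where the libraries were alike. Slc10a2, the ileal bile acid carrier, was at 0.0842, 0.432 and 1.78 CPM in aged ISC and 15.9, 61.6 and 34.7 CPM in aged AE, highest in replicate 3 and in replicate 2. Of the proximal markers, Gata4 was at 159.6, 178 and 131 CPM and 186, 215 and 158 CPM, lowest in replicate 3 of both, and Onecut2 at 83.8, 106 and 85.9 CPM and 62.6, 73 and 64.5 CPM, not lowest there. Cybrd1 stayed under 1 CPM. The calcium binding protein S100g, strongest in the duodenum, was at 4.6, 17.8 and 2.8 CPM and 22.1, 50.1 and 1.64 CPM, lowest in both libraries of aged replicate 3. In young mice Fabp6 was at 69, 30.2 and 19 CPM in ISC and 280, 286 and 45.5 CPM in AE. Young Slc10a2 was at 2.04, 2.04 and 1.18 CPM and 13.3, 42.4 and 14 CPM. Young Gata4 was at 166, 167 and 160 CPM and 170, 220 and 179 CPM. Young Onecut2 was at 104, 100 and 89.5 CPM and 83.3, 77.7 and 80.9 CPM. Young S100g was at 1.08, 5.39 and 23.8 CPM and 16.5, 32.4 and 51.1 CPM, lowest in replicate 1 of both. Slc34a2 is known from the distal and Slc40a1 from the proximal small intestine of the mouse, and the part of the sampled region in these values was not tested.

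**Figure D5:**
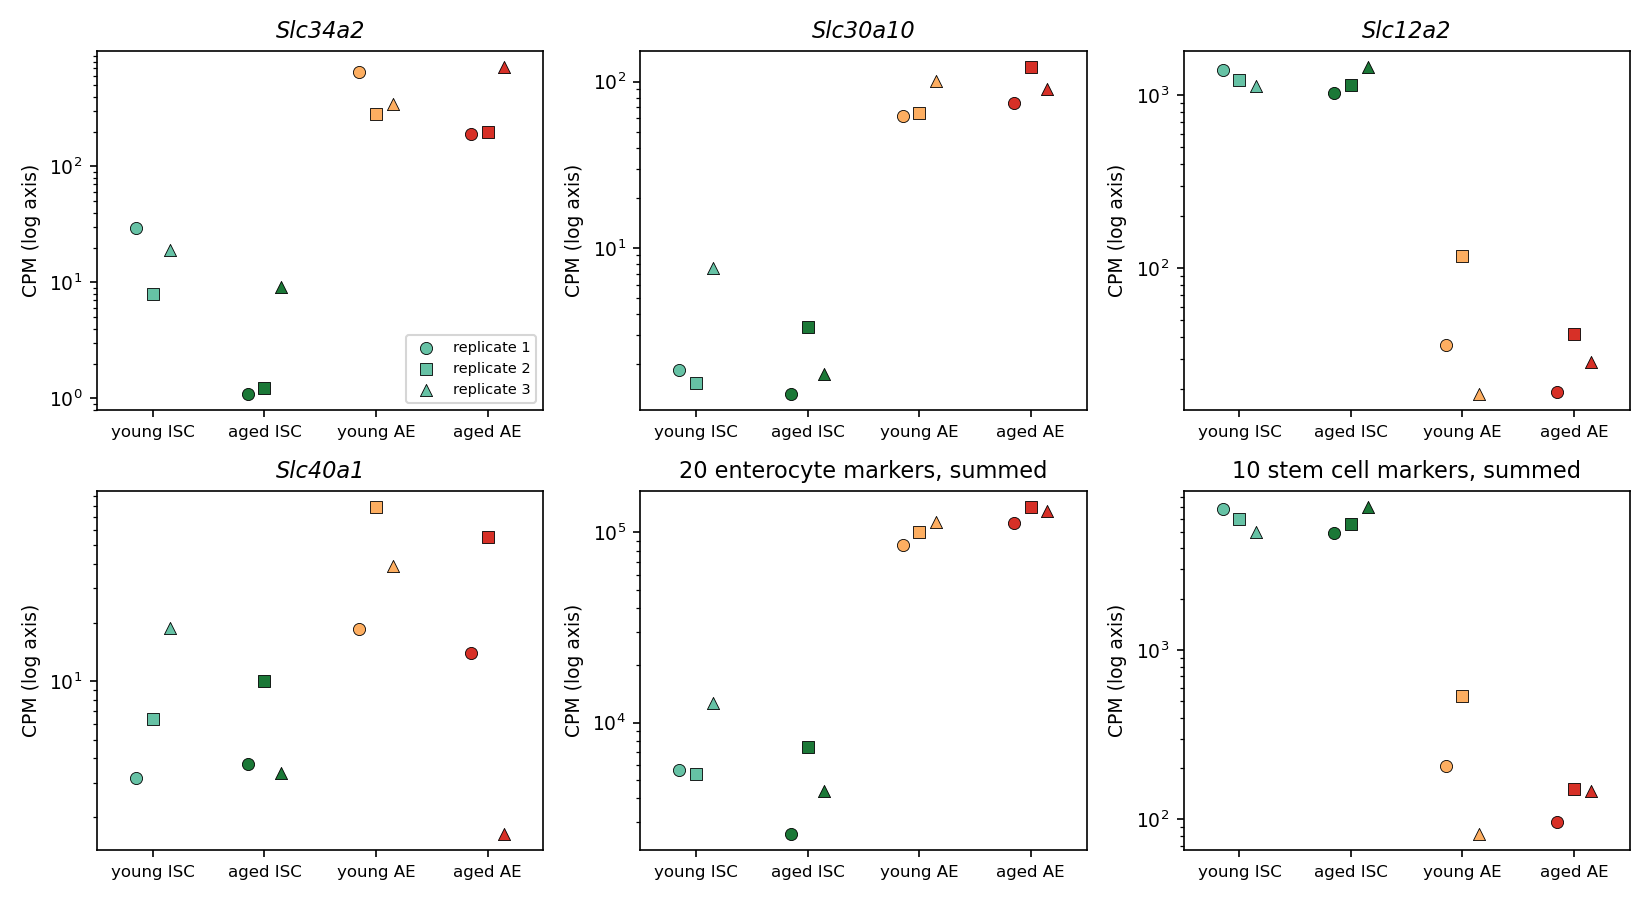
Level in CPM (y axis, log scale) of Slc34a2, Slc30a10, Slc12a2 and Slc40a1 and the summed level of 20 enterocyte and 10 stem cell markers in each library, by cell type and age (x axis), with symbols for replicates 1, 2 and 3. Among the aged libraries replicate 3 is highest for Slc34a2 and lowest for Slc40a1 in both cell types, and young AE replicate 2 is the highest AE library for Slc12a2 and for stem cell markers.

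Of the 87 members, 14 had too few counts for any test. The 8 with 0 counts in all libraries were Slc4a1, Slc4a10, Slc24a1, Slc24a4, Slc26a7, Slc26a9, Slc30a8 and Slc39a12, and a count of 0 allows a level of up to 0.0359 CPM in the deepest library and 0.327 CPM in the library with the highest limit, at 3 counts a library, for counting error only. A further 6, Slc8a2, Slc11a1, Slc12a1, Slc24a2, Slc24a5 and Slc26a5, had a few counts. These 14 include carriers known from erythrocytes, retina, kidney, hair cells, pancreatic islets and macrophages.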

How the data were processed

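The 12 libraries were poly(A)+ RNA prepared with a directional kit. The deposited table holds whole read counts per gene, which the authors made from reads trimmed with Trim Galore 0.4.4 and aligned to GRCm38 with HISAT2 2.1.0, and by counting in SeqMonk the uniquely mapped reads on exons of each gene's merged transcripts. The annotation release and the strand setting of the count are not given in the sources used here, so reads of overlapping genes may be shared. A second deposited table, with the log2 values and FDRs of the authors' own DESeq2 comparisons, was not used. Columns were placed by the cell type and age in their names and joined to no sample title. Replicate numbers follow the order of the columns.

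Members are the rows named for the 14 families, and members and lists were chosen with earlier results of these data known. A row entered a fit if its libraries summed to 10 counts or more, and was tested with edgeR 4.0.16 (R 4.3.3, limma 3.58.1) by quasi-likelihood F test with TMM scaling, and P values were adjusted over all rows by Benjamini-Hochberg, with a call at an FDR under 0.05. Standard errors were derived from the F statistic. AE was compared with ISC at each age, aged with young in each cell type, and the age effects of the cell types with each other over all 12 libraries, 5 comparisons in all. CPM were scaled to the TMM library size. Per kb values used the exon length in GENCODE M21 on GRCm38, in which 31801 of 34245 rows matched 1 gene by symbol and position. In the text a gene at or under 3 counts in every library of 1 group was given a bound on its fold in place of a fold. Libraries of 1 group differed by more than sampling noise, which does not show that they came from different animals. Each library was counted as a replicate, and 3 against 3 libraries allow an exact permutation test no P below 0.1.

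Members were named by rule: the 15 with the highest mean level, the 12 that rose most and the 12 that fell most among those called at both ages, the 3 with the smallest P in each direction of each age comparison, and 19 carriers chosen for their role. Members outside this rule were named after their values were seen. A few members and pathway genes are not reported here. Codes in the column names pair ISC with AE libraries: deviations from the group means over 11409 rows correlated at 0.236 to 0.462 for the 6 pairs of the same code and at -0.441 to 0.165 for the 12 other pairs. Whether a code is a mouse is not stated. Alternatives were DESeq2 1.42.0, RLE and upper-quartile scaling, no filter on low counts, the filterByExpr filter, a robust fit, 1 fit of all 4 groups, the replicate block and leaving out each library. The fits were run on simulated counts with the same spread set for every row and changes made only in rows with higher counts. That simulation does not bear on members with few counts.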

Additional observations from a re-analysis of the deposited data

How the results depend on the processing

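Counts of members called between AE and ISC varied with the processing, and no called member changed direction under any alternative in these comparisons. The filterByExpr filter gave 35 higher and 11 lower in young mice, of 58 tested. In aged mice it gave 38 higher and 12 lower, of 60 tested. Leaving out 1 library at a time gave 36 to 40 members higher and 8 to 13 lower in young AE, and 37 to 41 higher and 9 to 11 lower in aged AE. The 8 was reached without young AE replicate 3, the deepest library, where fewer rows were tested, 15372 against 16681. DESeq2 gave 40 higher and 10 lower in young and 41 higher and 9 lower in aged mice. With the replicate block 39 were higher and 12 lower in young and 44 higher and 13 lower in aged mice. In young mice Slc4a11 (FDR = 0.109), Slc26a1, Slc4a9 and Slc30a3 lost their call with the block, and in aged mice 4 members gained one, among them Slc40a1. The block changed no other call between AE and ISC, and aged and young libraries share no code, so no paired analysis of age within a cell type was possible. Age called 0 members in each cell type, and for the difference of the age effects, under every alternative run. For Slc12a2 the log2 fold change of aged against young AE ranged from -1.34 to 0.17 over the libraries left out, with 0.17 reached without young AE replicate 2, and the cause was not tested. Of the other values of single named members, 52 lost a call and 7 gained one, while 1371 kept their side of the threshold. Members under about 1 CPM rest on a few counts a library, and where a group is at or under 3 counts in every library a bound stands in place of the fold.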

Other observations

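Several further members were called at moderate size, and were picked for this paragraph after their values were seen. Slc4a5, a sodium-bicarbonate cotransporter, lay between 19.3 to 30.4 CPM over ISC and 41.7 to 58.9 CPM over AE libraries, with log2 fold changes of 1.10 ± 0.22 in young mice (FDR = 0.00411) and 0.74 ± 0.16 in aged mice (FDR = 0.00278), edgeR. Slc39a1, a zinc importer of the plasma membrane, lay between 45.7 to 55.5 CPM over ISC and 70.9 to 90.1 CPM over AE libraries, with log2 fold changes of 0.54 ± 0.14 in young mice (FDR = 0.012) and 0.66 ± 0.15 in aged mice (FDR = 0.00367). Slc30a9 lay between 56.1 to 62.6 CPM over ISC and 76.8 to 93.7 CPM over AE libraries, with log2 fold changes of 0.57 ± 0.14 in young mice (FDR = 0.0097) and 0.46 ± 0.13 in aged mice (FDR = 0.0106). The young call of Slc39a1 was lost without young ISC replicate 2 (FDR = 0.0511) and without young AE replicate 3 (FDR = 0.0881), and that of Slc30a9 without young AE replicate 3 (FDR = 0.0845). For these 3 the AE and ISC libraries did not overlap, and the share of all rows without overlap was not counted. Of all rows, 55.7% were called between AE and ISC in young mice and 65.0% in aged mice, so this is not read as particular to them. The zinc importers Slc39a3 and Slc39a11 were not called at either age, at 29.3 to 38 CPM over ISC and 29 to 39.7 CPM over AE libraries and at 56.3 to 86 CPM over ISC and 47.2 to 80.2 CPM over AE libraries, and in both the cell types overlapped.

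Among the genes beside the carriers, Mt1, a zinc-binding metallothionein, varied widely within groups. Its highest and lowest AE libraries were aged replicate 1, at 536 CPM, and young replicate 2, at 30.4 CPM. Pdzk1, the scaffold that holds brush border carriers, is named here after its values were seen. It was at 25.7, 15.2 and 50.2 CPM in young ISC and 2.95, 7.83 and 6.49 CPM in aged ISC. All aged libraries lay below the young ones, as they did for 4.44% of all rows. The log2 fold change was -2.43 ± 0.49 (FDR = 0.487, edgeR). Enterocyte marker sums also differed among these libraries, and their part in the Pdzk1 values was not tested.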
